A study of Rattus norvegicus with 50 samples.

Results

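Lungs of rats that had inhaled titanium dioxide (TiO2) nanoparticles were compared with lungs of rats that had breathed air, right after the end of exposure (D0). The comparison rested on 10 of the 50 arrays of the series, 5 control and 5 exposed, which are all samples whose labels give this day. All were male F344 rats, an inbred laboratory strain, aged 12 weeks, that breathed through the nose only. The exposed rats received an aerosol of P25, a commercial TiO2 powder made of anatase and rutile crystals, at 10 mg/m3, and the control rats received air alone, both for 6 hours a day, 5 days a week, over 4 weeks. RNA of the accessory lobe of the right lung, 100 ng per rat, was hybridised to one-colour Agilent arrays, with 1 array per rat, and the replicate numbers of the labels were kept as names of the rats. Expression levels are given as log2 of the array signal after quantile normalization, so that a difference of 1 is a doubling of the signal. Genes were called differentially expressed (DEGs) when the signal of exposed and control rats differed by at least 1.5-fold, which is 0.58 on the log2 scale, at an adjusted p under 0.05 by limma. The spread between rats behind each SE and p was estimated from all 50 arrays, most of them from later days, and not from these 10 alone.

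Inhaled particles that settle in the alveoli are taken up by alveolar macrophages, the resident phagocytes of the air space. Loaded macrophages and the epithelium release chemokines, small secreted proteins that draw neutrophils and monocytes out of the blood, and the epithelium secretes acute phase and antimicrobial proteins. Poorly soluble particles leave the lung slowly, so that this response can outlast the exposure itself.

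The label of the tissue was checked with marker genes of lung cells. Sftpc and Sftpb (surfactant proteins of alveolar type 2 cells), Ager and Aqp5 (alveolar type 1 cells), Scgb1a1 (club cells), Foxj1 (ciliated cells) and Cdh5 and Pecam1 (endothelium) were well above background on all 10 arrays. Sftpc stood at a mean log2 signal of 18.82 in control and 18.86 in exposed rats. The exception was Marco, a scavenger receptor of alveolar macrophages, whose probe was well above background on 1 control and 1 exposed array only. The median signal of the 10 arrays before normalization ran from 198 to 451.3 fluorescence units, and 68.7% to 80.4% of their gene spots were well above background. The arrays lay on 4 slides, each of which held both control and exposed rats.

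Of 25208 genes tested, 1079 (4.28%) were DEGs. Exposed lungs over-expressed 699 of them (2.77%) and under-expressed 380 (1.51%), while the median difference over all genes was -0.01. The 5 exposed rats did not overlap with the 5 control rats in 8.52% of genes, lying above them in 4.75% and below them in 3.77%. Increases were larger than decreases, with a median of 1.96-fold among the over-expressed and 1.7-fold among the under-expressed genes. At least 4-fold differences were seen for 40 over-expressed and 6 under-expressed genes. Within each of the 4 slides the exposed rats were compared with the control rats of the same slide, and 668 of the 699 over-expressed and 342 of the 380 under-expressed genes kept their direction on all 4. The genes were called from these same rats, so this agreement was in part set by the choice of genes. Each slide held few rats. On slide 2 it was control rat 2 against exposed rat 3, and on slide 3 control rat 3 against exposed rat 5. The split between directions depended on the slide term in the fit. With the slide as a block there were 822 over-expressed and 584 under-expressed DEGs, and 684 and 370 of these were shared with the fit without it. When the 10 arrays of D0 were normalized and fitted alone, there were 756 DEGs, 558 over-expressed and 198 under-expressed.

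**Figure D1:**
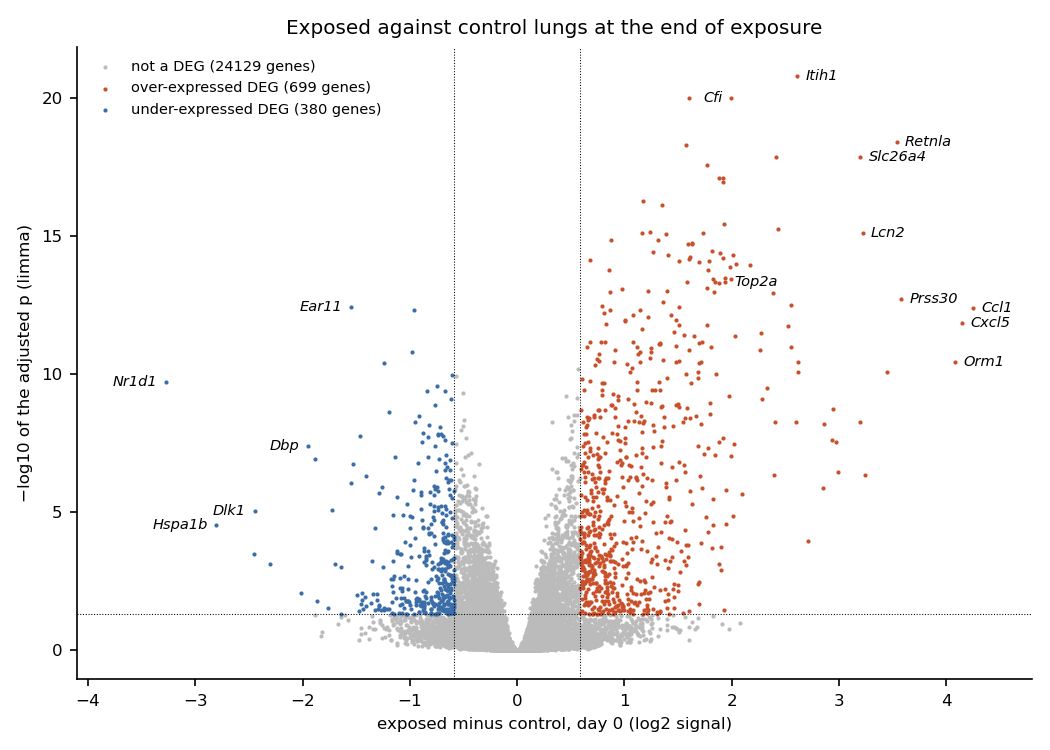
Each point is 1 of 25208 genes, with the difference between exposed and control rats at D0 (log2 signal) on the x axis and the −log10 of the limma adjusted p on the y axis. Dotted lines mark the limits for a DEG. The 699 over-expressed genes reach further from 0 than the 380 under-expressed genes, and Itih1 has the lowest adjusted p (1.58e-21).

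The most strongly over-expressed genes encoded chemokines, secreted defence proteins and epithelial products. The genes Ccl1, a chemokine for T cells and monocytes, and Cxcl5 (Cxcl6 in the current RefSeq naming), a chemokine for neutrophils, led the list. In the 5 control rats Ccl1 had log2 signals of 3.00, 3.65, 3.81, 5.42 and 3.87, none of them well above background. In the 5 exposed rats it had 7.89, 8.30, 8.45, 8.06 and 8.31. The groups were far apart, and the spread lay mostly among the dim control spots. The measured means were 3.95 ± 0.89 and 8.20 ± 0.22 (SD, n = 5 each, adjusted p = 3.98e-13). Control values below the dimmest signal still well above background on their array were then raised to that floor, which gave an increase of 17.97-fold. Any control value above the floor was kept, although none was well above background, so this is not a strict lower limit. Such floored values are given, here and below, for genes that no array of the lower group showed well above background. For Cxcl5 the control rats had 2.84, 3.57, 3.24, 3.50 and 3.09 and the exposed rats 6.68, 7.36, 7.73, 7.24 and 7.99 (adjusted p = 1.45e-12). The floored increase was 11.5-fold.

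Orm1, a plasma carrier protein of the acute phase, had 5.02, 5.65, 4.71, 5.99 and 4.67 in control and 9.11, 9.31, 9.37, 9.19 and 9.47 in exposed rats (difference 4.08, SE 0.38, adjusted p = 3.56e-11). Retnla, a secreted protein of epithelium and of alternatively activated macrophages, had 10.17, 9.53, 10.18, 10.73 and 10.40 in control and 13.91, 13.34, 14.09, 13.49 and 13.87 in exposed rats (difference 3.54, SE 0.18, adjusted p = 3.88e-19). Every exposed rat lay above every control rat for both genes, which the rule for the largest increases required. Prss30, a serine protease of epithelia, rose by 3.58, Lcn2, which binds bacterial iron carriers, by 3.22, and Slc26a4, the anion exchanger pendrin of the airway surface, by 3.20. Lesser known genes stood beside them, namely Gsg1 (2.94) and, as floored values, Rasgef1c (5.01-fold), the beta-defensin Defb3 (5.40-fold), Mab21l3 (6.86-fold) and Tnn, tenascin N (6.89-fold). The second probe of Tnn (0.66, adjusted p = 0.309) and of Mab21l3 (0.40, adjusted p = 0.323) did not pass the test, so that these increases rest on 1 probe each. Between control rats of 3 days later and those of D0, Retnla (0.64) and Gsg1 (1.11) were higher on the later day, past the test. Orm1 (-1.13, adjusted p = 0.0628) did not pass there. This comparison shares the control rats of D0, whose part in the D0 differences was not tested.

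The lowest adjusted p belonged to Itih1, a heavy chain that binds hyaluronan in the extracellular matrix. Its log2 signals were 6.00, 5.78, 5.63, 5.63 and 5.99 in control and 8.13, 8.56, 8.64, 8.46 and 8.28 in exposed rats (difference 2.61, SE 0.11, adjusted p = 1.58e-21). Next, with the same adjusted p as C4bpa below, came Cfi, complement factor I, which cleaves activated C3 and C4, with 11.61, 11.32, 11.44, 11.46 and 11.52 against 13.39, 13.44, 13.50, 13.43 and 13.54 (difference 1.99, SE 0.09, adjusted p = 1e-20). The rats of a group lay much closer to each other than to the other group in both genes. On the 4 slides taken singly the difference ran from 2.13 to 2.89 for Itih1 and from 1.83 to 2.18 for Cfi. Itih1 was higher in control rats of 3 days later than in those of D0, by 0.86 (adjusted p = 2.32e-07), while Cfi (0.43) was under the fold limit. This comparison shares the control rats of D0, whose part in the D0 differences was not tested. Both genes are named here for their p and were chosen after their values were seen.

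**Figure D2:**
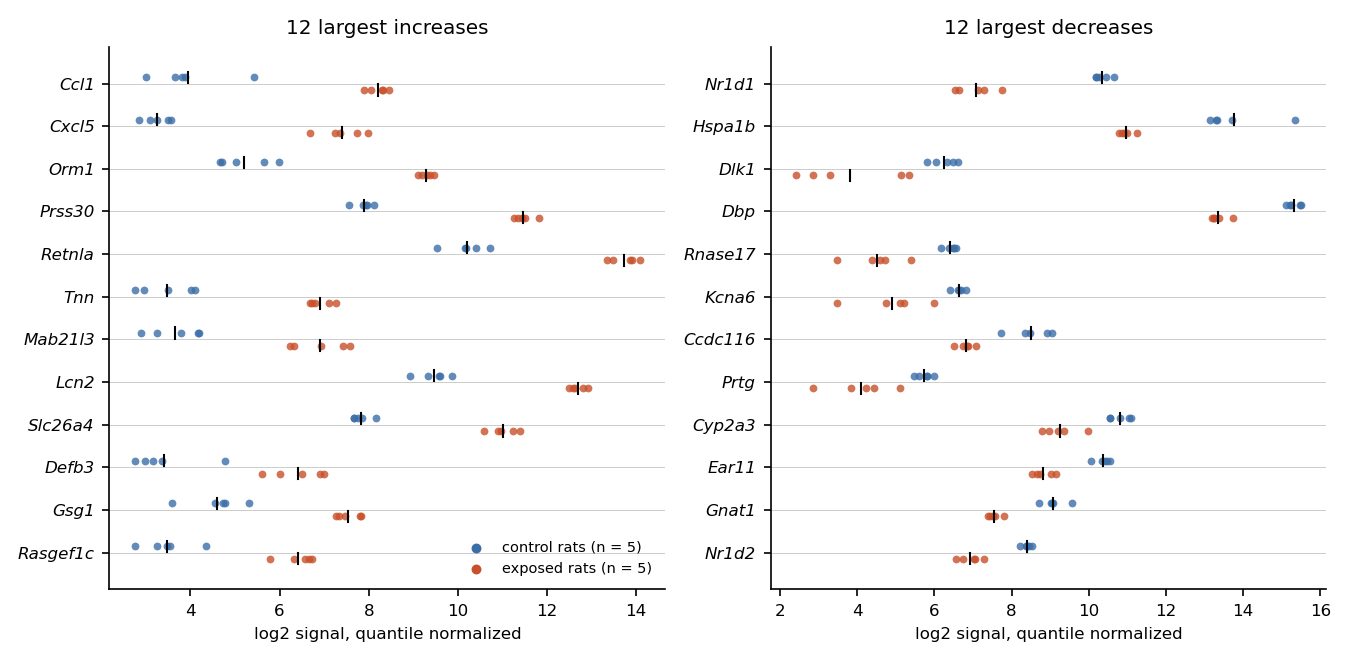
Log2 signal (x axis) of each rat for the 12 largest increases (left) and the 12 largest decreases (right) at D0, with control rats in blue, exposed rats in orange and group means as black ticks (n = 5 each). Exposed and control rats do not overlap in any of these genes, by the rule that chose them. The exposed rats of Dlk1 and Kcna6 are widely spread.

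Of 19 CC chemokines tested, 11 were over-expressed and none under-expressed, with a median difference of 0.87, against 2.77% over-expressed among all genes. The ligands of Ccr2, which recruit monocytes, rose by 2.85 (Ccl12), 2.62 (Ccl7) and 2.55 (Ccl2). For Ccl2 the control rats had 9.77, 10.36, 9.90, 10.25 and 10.62 and the exposed rats 12.64, 12.39, 13.09, 12.41 and 13.13 (SE 0.23, adjusted p = 1.05e-11). The groups did not overlap. Control rats of 3 days later were higher than those of D0 in 2 of the 19 genes, Ccl7 (1.02) and Ccl2 (0.93), against 1.52% of all genes. None of the 19 was lower. That comparison shares the control rats of D0, whose part in the D0 differences was not tested. Ccl22 (1.51, adjusted p = 1.62e-12) and Ccl17 (1.48, adjusted p = 1.09e-12), ligands of Ccr4 on T cells, and Ccl20 (1.28), the ligand of Ccr6, rose as well, as did Ccl9 (1.01), Ccl3 (0.87) and Ccl4 (0.70). Ccl28 was over-expressed by 1.31, but control rat 1 (6.37) lay within the exposed range. Ccl5, a chemokine of T and NK cells, had means of 14.56 and 14.57 and did not pass the test (adjusted p = 0.984).

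Of 16 CXC and other chemokines, 7 were over-expressed, none under-expressed, and the median difference was 0.51. Besides Cxcl5, the neutrophil chemokines Cxcl2 (1.82, adjusted p = 2e-04) and Cxcl1 (1.72, adjusted p = 1.35e-06) rose. For Cxcl3 the probe used gave 0.45, under the fold limit, while its other probe gave 2.04 (adjusted p = 1.44e-12). Its place outside the DEGs thus rests on the choice of probe. Cxcl1 had 12.36, 13.20, 12.52, 12.69 and 12.17 in control and 14.09, 14.54, 14.10, 14.56 and 14.26 in exposed rats. Control rat 2 was the highest of the control rats for both genes, and still lay below every exposed rat. Cx3cl1, the membrane-bound fractalkine, rose by 1.39 (SE 0.11, adjusted p = 1.01e-13). Of the interferon-induced ligands of Cxcr3, Cxcl11 rose by 1.83 and Cxcl10 by 1.19, the latter with overlapping groups, and Cxcl9 differed by 0.26 (adjusted p = 0.0746). For these 3 the exposed rats had 6.05 to 6.81, 7.96 to 9.50 and 8.61 to 9.23, in that order. In 2 of the 16 genes control rats of 3 days later were higher than those of D0, against 1.52% of all genes, and in none lower. Cxcl10 was among them (1.34, adjusted p = 0.00149). This comparison shares the control rats of D0, whose part in the D0 differences was not tested.

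The DNA just upstream of the over-expressed neutrophil chemokines and of Ccl20 is shown because these genes moved together and each carries a match to the consensus of NF-kappaB, a transcription factor activated by Tnf and Toll-like receptors. Both strands of the 250 bases upstream of each start site were searched, in RefSeq promoters of rat assembly GRCr8. Matches are in capitals, with the flanking bases in lower case, 5′ to 3′ on the strand of the gene. The regions are chr14:17596466-17596535, minus strand (Cxcl5), chr14:17479366-17479435, minus strand (Cxcl1), chr14:17467289-17467359, minus strand (Cxcl2) and chr9:91837040-91837109, plus strand (Ccl20).
Cxcl5: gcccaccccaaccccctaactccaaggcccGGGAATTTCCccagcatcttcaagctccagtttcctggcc
Cxcl1: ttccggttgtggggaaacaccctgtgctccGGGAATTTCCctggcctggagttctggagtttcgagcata
Cxcl2: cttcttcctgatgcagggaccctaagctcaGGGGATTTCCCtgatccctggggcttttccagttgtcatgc
Ccl20: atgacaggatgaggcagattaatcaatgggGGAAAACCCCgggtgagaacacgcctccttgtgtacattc
The consensus was found in 4.24% of 33469 promoters. It was found in 4 of 6 over-expressed CXC chemokines with a single RefSeq promoter (Cxcl1, Cxcl2, Cxcl5 and Cxcl10) and in 3 of 8 such CC chemokines (Ccl7, Ccl9 and Ccl20). A match describes the letters of the promoter and was not tested as a binding site. The matches of Cxcl5 and Cxcl1 have the same letters.

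Among the receptors of these ligands, 4 of 21 were over-expressed and 1 was under-expressed, with a median difference of 0.19. Ccr2, the monocyte receptor of Ccl2, had 5.53, 5.88, 6.24, 5.75 and 5.91 in control and 6.84, 7.23, 7.11, 6.85 and 6.98 in exposed rats (difference 1.14, SE 0.11, adjusted p = 3.77e-11). Exposed and control rats were clearly separated. Cxcr6 (0.80) and Ccr6 (0.76) rose too, while the scavenging receptor Cxcr7 fell by 0.63, a call that was lost when either of 2 rats was left out. Of the neutrophil receptors, Cxcr2 differed by 0.37 (adjusted p = 0.105) and Cxcr1 by -0.21 (adjusted p = 0.356), and neither passed the test.

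Of 34 cytokines and colony stimulating factors, 8 were over-expressed and none under-expressed, and 12 were well above background in neither group. Tnf, the early inflammatory cytokine of macrophages, had 10.62, 11.42, 10.71, 10.97 and 10.76 in control and 12.73, 12.81, 12.71, 12.30 and 12.80 in exposed rats (difference 1.77, SE 0.22, adjusted p = 4.76e-08). All exposed rats lay above all control rats, exposed rat 4 being the lowest of them. Il1b, a further macrophage cytokine, had group means of 12.56 and 12.81 and was not a DEG (adjusted p = 0.392). Tnfsf9 (0.85) and Csf2 (0.76), a growth factor of alveolar macrophages, rose. Il13 (1.90), a type 2 cytokine, and Il24 (1.5) were called from dim control spots, and the groups of Il13 overlapped. The call of Il6 (1.06, adjusted p = 0.00491) came from signals that were well above background on none of the 10 arrays, and is given with that limit.

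Inhibitors of interleukin 1 signalling rose, with Il1r2, its decoy receptor, up by 1.16 (adjusted p = 1.16e-06) and Il1rn, the receptor antagonist, up by 0.79 (SE 0.08, adjusted p = 3.9e-10). The wider list of cytokine receptors and feedback inhibitors held 6 over-expressed and 1 under-expressed gene of 32, and its median of 0.22 was between 0.18 and 0.30 when single rats were left out. Tnfrsf9, the receptor of Tnfsf9, was named after its values were seen and rose by 2.28 (adjusted p = 3.24e-12). Of 35 pattern recognition and phagocytic receptors, 6 were over-expressed (median 0.34), among them Tlr2 (1.12), Cd14 (0.92), Clec4a (0.84), Clec5a (0.73) and Clec4a3 (0.65). Tlr4 (0.12), Nlrp3 (0.30) and the adaptor Myd88 (0.16) were not DEGs. Fcgr2b was not a DEG by the probe used (0.36, adjusted p = 0.164), while its other probe gave 1.23 (adjusted p = 2.43e-13). In 4 of the 35 receptors control rats of 3 days later were higher than those of D0, against 1.52% of all genes, and in none lower. Clec4a3 was among them (0.785, adjusted p = 1.15e-10), and its exposure effect on that later day was 0.16. This comparison shares the control rats of D0, whose part in the D0 differences was not tested.

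Of 23 acute phase and secreted defence proteins, 13 were over-expressed and none under-expressed, with a median of 0.65. Hp, haptoglobin, which binds free haemoglobin, had 13.70, 13.29, 13.43, 13.65 and 13.67 in control and 15.07, 15.16, 15.09, 15.15 and 15.16 in exposed rats (difference 1.58, SE 0.08, adjusted p = 5.14e-19). The exposed rats were nearly alike, and all lay above the control rats. Ptx3, a soluble pattern recognition protein, rose by 1.5 and Hpx, which binds haem, by 0.96, while Saa4 rose by 0.71 on 1 probe, its other probe giving 0.48 (adjusted p = 0.393). The classical liver protein Crp was well above background on none of the 10 arrays.

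Of 36 complement genes, 9 were over-expressed and 1 was under-expressed, with a median of 0.31. C3, the central component, rose by 1.35 (SE 0.08, adjusted p = 7.71e-17), from 14.95 ± 0.21 to 16.30 ± 0.07 (SD, n = 5 each). C4bpa, an inhibitor of the C3 convertase, rose by 1.60 (SE 0.07, adjusted p = 1e-20), the terminal component C9 by 1.63, the lectin Mbl1 by 1.21 and factor B (Cfb) by 0.68. Both activating and inhibitory proteins were thus among the over-expressed genes. The macrophage complement receptor Vsig4 fell by 0.81, but the groups overlapped and the call was lost when any 1 of 3 rats was left out.

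The kinin and clotting genes moved in both directions, with 5 over-expressed and 4 under-expressed genes of 40 and a median of 0.05. The kininogens Kng1 (2.04, SE 0.14, adjusted p = 1.04e-14) and Kng1l1 (1.99), precursors of bradykinin-like peptides, rose, whereas the related Kng2 differed by 0.10 (adjusted p = 0.367). Kng1 and Kng1l1 are close paralogs, and the array does not settle how far their probes share transcripts. Prothrombin (F2) rose by 1.07. The fibrinogen chain Fgg rose by 0.98 (adjusted p = 8.3e-14), while Fga and Fgb, the other chains, were well above background on no array. Plat, the tissue plasminogen activator, fell by 0.93 (adjusted p = 1.62e-07), and Procr, the endothelial receptor of protein C, by 0.74 (adjusted p = 8.63e-06). F13a1 (-0.72) and Serpind1 (-0.78) were also under-expressed, with overlapping groups and calls that depended on single rats. In 2 of the 40 genes control rats of 3 days later were lower than those of D0, against 0.813% of all genes, and in none higher. Plat was among them (-0.62, adjusted p = 0.000502). This comparison shares the control rats of D0, whose part in the D0 differences was not tested.

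**Figure D3:**
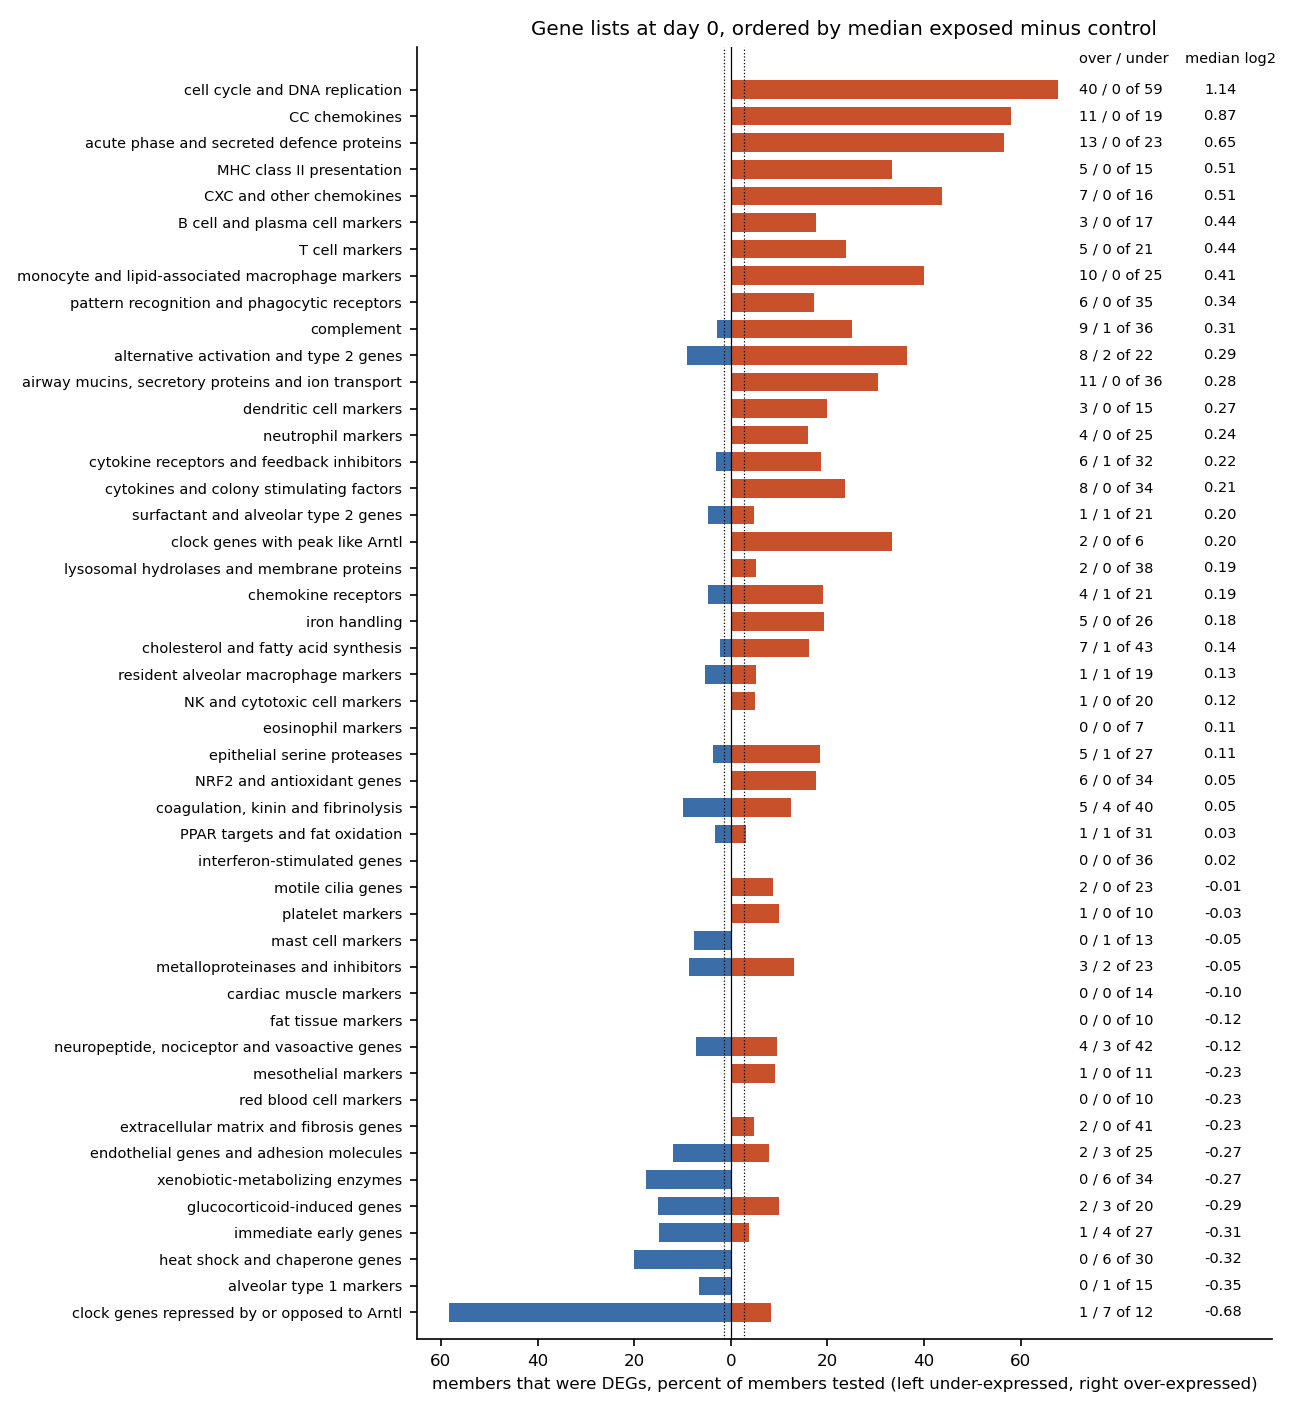
Share of the tested members of each of 47 gene lists that were DEGs at D0, over-expressed to the right and under-expressed to the left (x axis, percent), with counts and the median difference (log2) in the right margin. Dotted lines mark the 2.77% and 1.51% over all 25208 genes. The cell cycle, chemokine and acute phase lists lie at the top and the clock genes opposed to Arntl at the bottom.

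Marker genes of leukocytes are given as lists. In whole lung tissue, more or fewer cells of a type and more or less RNA per cell cannot be told apart. Of 25 neutrophil markers, 4 were over-expressed (16%, against 2.77% of all genes). Cd177 had 12.12, 11.47, 11.61, 11.45 and 12.64 in control and 14.18, 14.32, 14.36, 14.34 and 14.25 in exposed rats (difference 2.43, SE 0.15, adjusted p = 5.66e-16). S100a9 rose by 1.69, its partner S100a8 by 1.36 and Il1r2 by 1.16, as above. The median of the list was 0.24. Mpo (0.24), Elane (-0.77), Ltf (0.07) and Mmp8 (-0.27) did not pass the test, and Mpo, Elane and Ltf were at or near background in both groups. The list level, which is the median over members after each gene was centred over the 20 rats of D0 and of 3 days later, ran from -0.32 to 0.01 in control and from -0.06 to 0.42 in exposed rats, with overlap. How far the number of neutrophils bears on the differences in secreted proteins was not tested. Within slides its difference was 0.38, -0.11, 0.50 and -0.01.

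Of 25 monocyte and lipid-associated macrophage markers, 10 were over-expressed and none under-expressed, with a median of 0.41. Spp1, osteopontin, had 8.56, 7.99, 9.43, 9.20 and 8.26 in control and 11.16, 10.53, 11.51, 10.78 and 11.46 in exposed rats (difference 2.40, SE 0.27, adjusted p = 5.55e-09). Mmp12, the macrophage elastase, rose by 1.61, Gdf3 by 1.16, Ccr2 by 1.14, the fatty acid binding protein Fabp5 by 1.01, Ctsk by 0.92, Mmp14 by 0.85 and Itgam by 0.81. Their list level ran from -0.43 to -0.20 in control and from 0.07 to 0.27 in exposed rats, without overlap. Gpnmb (0.36, adjusted p = 0.0959) and Cd68 (0.66, adjusted p = 0.0939) were not DEGs. Control rats of 3 days later were higher than those of D0 in 4 of the 25 markers, against 1.52% of all genes, and lower in none. These were Gdf3 (0.89), Mmp12 (0.76), Ccr2 (0.74) and Fabp5 (0.66), and the median over the list was 0.31. That comparison shares the control rats of D0, whose part in the D0 differences was not tested.

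The 19 markers of resident alveolar macrophages had a median of 0.13 and held 1 over-expressed gene, Nceh1 (0.71), and 1 under-expressed gene, Ear11. DEGs made up 10.5% of them, against 4.28% of all genes. Ear11, an eosinophil-associated ribonuclease, had 10.48, 10.56, 10.41, 10.35 and 10.06 in control and 9.03, 8.53, 8.67, 8.73 and 9.15 in exposed rats (difference -1.55, SE 0.12, adjusted p = 3.66e-13). All exposed rats were lower, which the rule for the largest decreases required. Pparg (-0.08) and Mrc1 (-0.05), which also mark these cells, were not DEGs. Among 38 lysosomal genes 2 were over-expressed (5.3%, against 2.77% of all genes), Atp6v0d2 (1.21) and Ctsk, and the median was 0.19.

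Of 22 genes of alternative activation and type 2 inflammation, 8 were over-expressed and 2 under-expressed. Besides Retnla, the chitinase-like protein Chi3l1 rose by 1.92 (SE 0.11, adjusted p = 1.08e-17), the acidic chitinase Chia by 1.36 (adjusted p = 2.38e-13) and Retnlb by 3.48-fold (floored value). Alox15, a lipoxygenase of macrophages and eosinophils, had 8.20, 8.39, 8.42, 8.04 and 8.19 in control and 7.35, 6.58, 7.13, 6.80 and 7.41 in exposed rats (difference -1.19, adjusted p = 2.3e-09). All exposed rats lay below all control rats. None of the 7 eosinophil markers was a DEG by limma (0 at an unadjusted p under 0.05), and 5 of them were well above background in neither group.

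Of 21 T cell markers 5 were over-expressed (median 0.44), among them the costimulator Icos (1.06), Il7r (0.86), Cd6 (0.77) and Cd3g of the T cell receptor complex (0.67). The other probes of Cd6 (0.48, adjusted p = 0.543, and 0.14, adjusted p = 0.87) did not pass the test. Cd4 (0.07) and Cd8a (0.19) were not DEGs. Of 17 B and plasma cell markers 3 were over-expressed (median 0.44), led by Tnfrsf17 (0.86, with overlapping groups), and the calls of Fcer2 and Cd79b depended on single rats. Within slides 1 to 4 the median was 0.04, 0.66, 0.40 and 0.75 for the T cell list and 0.05, 0.38, 0.33 and 0.59 for the B cell list. Both were near 0 on slide 1. Of 15 genes of MHC class II presentation 5 were over-expressed (median 0.51), among them Cd86 (0.83) and RT1-DOa (0.66), while the calls of RT1-Da, RT1-Bb and RT1-Ha depended on single rats. Dendritic cell markers gave 3 of 15, with Siglech (1.57), a receptor of plasmacytoid cells, and Clec9a (0.66), whose second probe did not pass the test (-0.09, adjusted p = 0.965). Of 20 NK and cytotoxic markers 1 was over-expressed (5%, against 2.77% of all genes), Cst7, with a call that depended on single rats, and the median was 0.12. None of 36 interferon-stimulated genes was a DEG at D0 by limma (4 at an unadjusted p under 0.05), their median was 0.02, and Isg15 (0.02), Irf7 (0.03) and Mx1 (0.21) did not pass the test. Control rats of 3 days later were higher than those of D0 in 3 of the 21 T cell markers, against 1.52% of all genes, and lower in none (median 0.47). The same comparison gave 1.72 for Siglech and 0.82 for Cd86, both past the test, while Il7r (0.36) and Clec9a (0.08) did not pass. It shares the control rats of D0, whose part in the D0 differences was not tested.

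Airway genes were over-expressed in 11 of 36 cases and under-expressed in none, with a median of 0.28. Bpifb1, a secreted airway protein, had 10.80, 9.93, 10.27, 10.61 and 10.83 in control and 13.38, 13.04, 13.01, 13.21 and 12.90 in exposed rats (difference 2.62, SE 0.25, adjusted p = 8.31e-11). Lpo, lactoperoxidase, rose by 2.60, and Duox1 (0.91) and its maturation factor Duoxa1 (0.67), which supply hydrogen peroxide at the airway surface, rose with it. The chloride channel Cftr rose by 0.94, Muc20 by 1.62, Muc1 by 0.71 and Tmem45b by 3.43-fold (floored value). The gel-forming mucin Muc5ac was well above background on no array, and the club cell protein Scgb1a1 was not a DEG (-0.27, adjusted p = 0.0687). Of 27 epithelial serine proteases 5 were over-expressed and 1 under-expressed, with Prss22 (1.88), Tmprss9 (1.61), Klk13 (1.27) and Tmprss4 (0.93) beside Prss30. The second probe of Tmprss9 did not pass the test (0.86, adjusted p = 0.227). The under-expressed one, Tmprss11e, depended on single rats. Cilia genes stayed near 0 (median -0.01), apart from Ccno (0.94) and Tekt2 (0.82) among 23 (8.7% DEGs, against 4.28% of all genes).

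Of 15 alveolar type 1 markers, 1 was under-expressed, Igfbp2 (-0.83, SE 0.10, adjusted p = 1.91e-08), but all 15 had differences below 0, and the median was -0.35. DEGs thus made up 6.7% of this list, against 4.28% of all genes. Ager differed by -0.39 and Aqp5 by -0.35, both under the fold limit. The list level of these markers ran from 0.08 to 0.34 in control and from -0.35 to -0.12 in exposed rats, without overlap. The 21 surfactant and alveolar type 2 genes had a median of 0.20, and 9.5% of them were DEGs. Of these, Lpcat1, an enzyme of surfactant lipid synthesis, was over-expressed (0.62), a call that was lost when 1 rat was left out. Scd1 is given below.

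Of 34 NRF2 targets and antioxidant genes, 6 were over-expressed and none under-expressed, and the median was 0.05. Slc7a11, the cystine importer, had 5.54, 5.55, 5.61, 5.66 and 5.71 in control and 7.20, 7.30, 7.55, 7.26 and 7.42 in exposed rats (difference 1.73, SE 0.11, adjusted p = 7.66e-16). Both groups were tight and far apart. Sod2, the mitochondrial superoxide dismutase, rose by 1.51, the metallothioneins Mt2A by 1.35 and Mt1a by 1.20, Srxn1, which repairs peroxiredoxins, by 1.17 (SE 0.08, adjusted p = 8.03e-16), and Akr1b8 by 0.71. The usual NRF2 targets Nqo1 (0.01, adjusted p = 0.99) and Gclc (-0.01, adjusted p = 0.988) were not DEGs, and Hmox1 differed by 0.47 (adjusted p = 0.0778) without overlap between the groups. Of 26 genes of iron handling 5 were over-expressed, namely Lcn2, Hp, Hpx, the iron importer Slc11a2 (1.06) and transferrin, Tf (0.76). The other probes of Slc11a2 gave 0.21 (adjusted p = 0.0778) and 0.26 (adjusted p = 0.00216), both under the fold limit. The ferritin chains Fth1 (0.03) and Ftl1 (0.07) were not DEGs.

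Cell cycle genes gave the largest median of all 47 lists in the main fit. With another background correction (normexp) their median was 0.633, below the 0.72 of the CC chemokines. Of 59 tested, 40 were over-expressed and none under-expressed, with a median of 1.14, and 42 had exposed rats that all lay above the control rats, against 4.75% of all genes. Top2a, the topoisomerase of S phase and mitosis, had 6.59, 6.78, 6.86, 6.65 and 7.22 in control and 8.42, 8.58, 8.95, 8.69 and 9.17 in exposed rats (difference 1.94, SE 0.14, adjusted p = 4.77e-14). The mitotic kinase Cdk1 had 9.99, 9.69, 9.72, 9.93 and 10.16 against 11.47, 11.55, 11.80, 11.68 and 11.84 (difference 1.77, SE 0.10, adjusted p = 2.74e-18). The highest control rat lay well below the lowest exposed rat in both genes. Cdca3 (2.17), the kinetochore gene Spc25 (1.99), the ribonucleotide reductase subunit Rrm2 (1.89), the cyclins Ccnb2 (1.85) and Ccnb1 (1.82), the ubiquitin ligase subunit Ube2c (1.84), the proliferation marker Mki67 (1.26) and the replication helicase subunit Mcm5 (1.15) rose likewise. Under the fold limit were Pcna (0.26, adjusted p = 0.0069) and the cyclin Ccnd1 (-0.32, adjusted p = 0.00223). Within the 4 slides the median of the list was 0.90, 1.15, 1.37 and 1.18.

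The control rats of D0 were themselves the lowest of the 4 groups of D0 and of 3 days later (D3) in these genes. The list level was -0.90 to -0.79 in control and 0.14 to 0.41 in exposed rats at D0, and 0.03 to 0.17 in control and 0.39 to 0.73 in exposed rats at D3. The control rats of D3 thus lay close to the exposed rats of D0. In the test of control rats of D3 against those of D0, 36 of the 59 genes were higher at D3 (median 1.04), against 382 of all genes (1.52%), of which 2.33% differed in either direction. Top2a was higher in them by 1.93 (adjusted p = 4.64e-13), Cdk1 by 1.40 (adjusted p = 4.83e-14) and Mki67 by 1.05. The exposure effect at D3 had a median of 0.44 over the list, and 26 of the 59 genes had a smaller exposure effect at D3 than at D0 by the interaction test, against 111 of all genes (0.440%, or 0.678% in either direction). For Top2a the effect was 1.94 at D0 and 0.42 at D3 (interaction -1.53, adjusted p = 9.11e-06). These 3 comparisons share the control rats of D0, and how far the level of those rats sets the D0 difference was not tested.

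**Figure D4:**
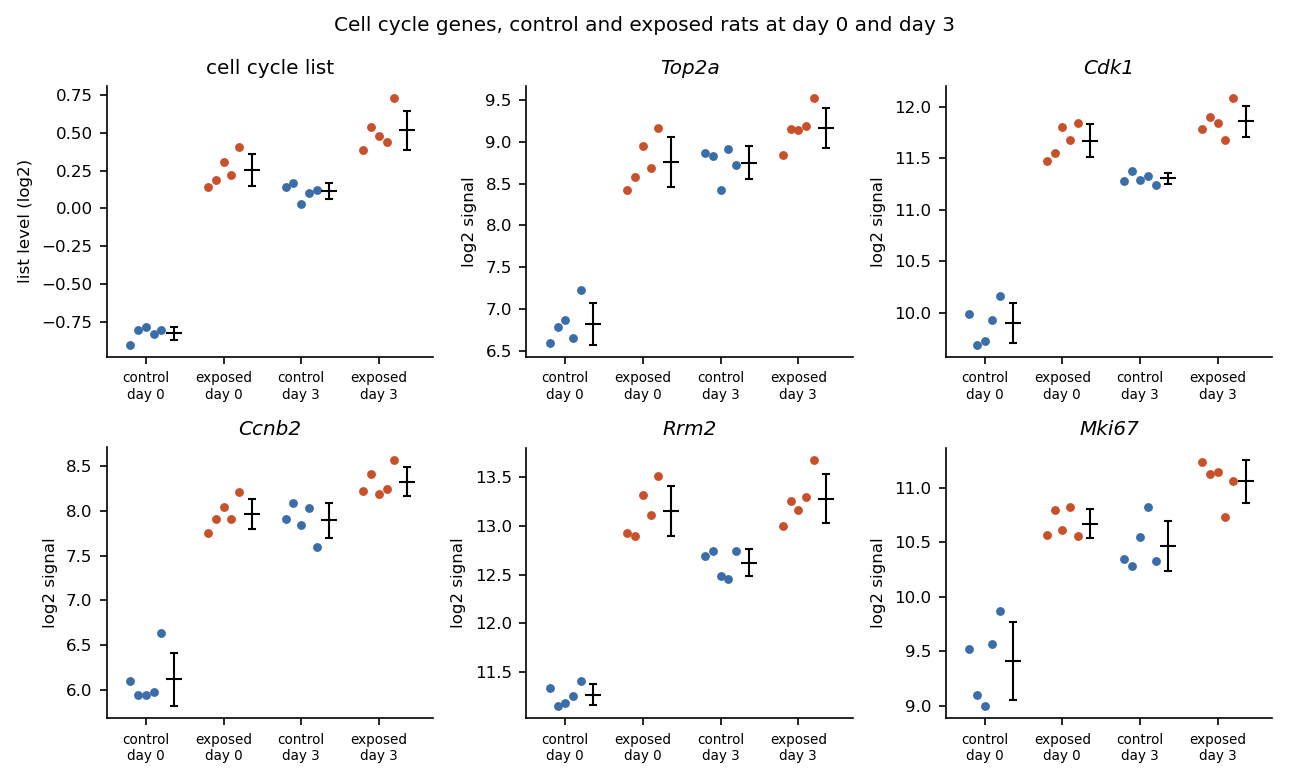
Level of the cell cycle list (median of centred log2 signals) and log2 signal of Top2a, Cdk1, Ccnb2, Rrm2 and Mki67 in each rat (y axes) for control and exposed rats at D0 and D3, with mean and SD beside the points (n = 5 each). The control rats of D0 are the lowest group in every panel.

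Promoters of 3 over-expressed genes of this list are shown. CCAAT boxes (CCAAT, bound by the factor NF-Y) and CHR elements (TTTGAA, bound by the DREAM and MuvB complexes) are the textbook elements of genes expressed in G2 phase and mitosis. Both motifs were searched on both strands of the 250 upstream bases, so that a CCAAT box on the other strand reads ATTGG and a CHR reads TTCAAA, and both are in capitals below. The windows are chr10:84473094-84473343, minus strand (Top2a), chr20:19265053-19265292, plus strand (Cdk1) and chr8:79981666-79981902, minus strand (Ccnb2), in GRCr8.
Top2a: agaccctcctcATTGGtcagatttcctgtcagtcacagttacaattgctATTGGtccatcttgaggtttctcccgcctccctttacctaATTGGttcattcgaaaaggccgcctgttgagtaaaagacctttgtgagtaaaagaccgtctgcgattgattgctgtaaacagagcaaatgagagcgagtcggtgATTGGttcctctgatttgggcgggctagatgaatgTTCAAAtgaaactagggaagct
Cdk1: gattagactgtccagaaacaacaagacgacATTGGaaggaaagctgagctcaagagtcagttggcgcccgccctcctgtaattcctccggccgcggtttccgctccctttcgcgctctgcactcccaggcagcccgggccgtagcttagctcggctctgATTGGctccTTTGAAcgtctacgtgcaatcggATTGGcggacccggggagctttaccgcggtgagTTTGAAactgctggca
Ccnb2: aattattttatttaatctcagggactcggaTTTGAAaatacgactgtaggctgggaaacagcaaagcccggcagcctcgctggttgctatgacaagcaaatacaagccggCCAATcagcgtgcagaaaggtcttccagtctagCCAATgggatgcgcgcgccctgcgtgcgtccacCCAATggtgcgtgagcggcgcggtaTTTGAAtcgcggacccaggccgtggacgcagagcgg
Each of the 3 held 5 matches, but they were picked from genes that hold both motifs and do not stand for the list. Of the 40 over-expressed cell cycle genes, 31 matched a single RefSeq promoter, and 24 of these held a CCAAT box and 13 a CHR, while 34% and 16.2% of 33469 promoters did so. No 2 matches overlapped in the 3 promoters printed.

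The core clock consists of activators (Arntl, Clock, Npas2) and of genes they drive through E-boxes, whose products peak at the opposite time of day. Of 12 genes of the latter kind, 7 were under-expressed and 1 over-expressed, with a median of -0.68, against 1.51% under-expressed among all genes. Nr1d1, a nuclear receptor that represses Arntl, had 10.64, 10.45, 10.19, 10.18 and 10.26 in control and 7.76, 7.13, 7.29, 6.65 and 6.54 in exposed rats (difference -3.27, SE 0.33, adjusted p = 1.87e-10). It was the largest decrease of all genes. Dbp, a transcription factor of clock output, had 15.48, 15.24, 15.50, 15.22 and 15.11 against 13.74, 13.24, 13.38, 13.20 and 13.23 (difference -1.95, SE 0.24, adjusted p = 4.02e-08), and its other probes gave -2.03 and -1.97. Within slides the difference ran from -3.66 to -2.69 for Nr1d1 and from -2.27 to -1.55 for Dbp.

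Nr1d2 (-1.46), Tef (-0.95) and Per3 (-0.72) fell as well, as did Per2 (-0.65), whose call was lost when any 1 of 5 rats was left out. RGD1566380, now named Ciart, a repressor of the clock, had 6.97, 7.31, 7.05, 6.90 and 6.39 in control and 4.53, 7.72, 3.04, 4.06 and 3.73 in exposed rats (difference -2.31, adjusted p = 0.000756). Exposed rat 2 lay above all control rats, the other 4 exposed rats below them. Of the activators, Arntl rose by 1.26 (adjusted p = 6.63e-07), whereas Clock (0.11) and Npas2 (0.29) were not DEGs. The repressor Nfil3, which peaks with Arntl, rose by 1.03, and Bhlhe41 rose by 1.05, against its list. For Nr1d1 the exposure effect at D3 was -1.31, smaller than at D0 (interaction 1.97, adjusted p = 0.0186), while for Dbp it was -2.49. Control rats of D3 and of D0 did not differ by the test in Nr1d1 (adjusted p = 0.894) or Dbp (adjusted p = 0.998). They did differ in Per2, by -0.92 (adjusted p = 0.00284), and in Npas2, by 0.63 (adjusted p = 0.0382). The interaction and the comparison of control rats share the control rats of D0 with the D0 difference. The labels do not give the hour at which each rat was killed, and the part of the time of day in these differences was not tested.

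Ciart is shown for its E-boxes (CACGTG, which reads the same on both strands), the element through which Arntl acts. The window is chr2:186112247-186112369, minus strand in GRCr8, with the E-boxes in capitals.
Ciart: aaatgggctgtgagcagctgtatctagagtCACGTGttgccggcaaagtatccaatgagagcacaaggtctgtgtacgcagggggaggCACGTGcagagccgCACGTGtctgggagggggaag
It held 3 E-boxes in 123 bases. Of the 6 under-expressed clock genes with a single RefSeq promoter, Ciart and Tef held at least 1, as did 5.59% of all promoters.

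Of 30 heat shock and chaperone genes, 6 were under-expressed and none over-expressed, with a median of -0.32. Hspa1b, an inducible Hsp70, had 13.30, 15.33, 13.33, 13.70 and 13.15 in control and 11.26, 10.98, 10.77, 10.87 and 10.92 in exposed rats (difference -2.80, SE 0.48, adjusted p = 2.81e-05). Control rat 2 was far above the other control rats. That all control rats lay above all exposed rats was required by the rule for the largest decreases. The second probe of Hspa1b did not pass the test (-0.08, adjusted p = 0.941), and within slides the difference of the first ran from -4.57 to -1.96. The co-chaperones Dnajb1 (-0.97, adjusted p = 1.57e-06) and Dnaja1 (-0.83), the small heat shock proteins Hspb1 (-0.96, SE 0.08, adjusted p = 4.77e-13) and Hspb8 (-0.71), and Hsph1 (-0.76) fell. Hspa5, a chaperone of the endoplasmic reticulum, was not a DEG (0.12, adjusted p = 0.517). At D3 the exposure effect had a median of -0.04 over the list, and the control rats of D3 differed from those of D0 by -2.40 in Hspa1b, by -0.74 in Dnajb1 and by -0.77 in Hspb1, all past the test. Of 30 list members, 4 were lower in the control rats of D3, against 0.813% of all genes, and 5 had a higher exposure effect at D3 than at D0, against 0.238%. These comparisons share the control rats of D0, and the part of those rats in the D0 difference was not tested.

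Of 27 immediate early genes 4 were under-expressed and 1 over-expressed (median -0.31). The phosphatase Dusp1 (-1.07, adjusted p = 0.00707) and Klf4 (-0.80, adjusted p = 0.000637) fell, Dusp2 rose by 1.07 (adjusted p = 7.25e-06), and the calls of Nr4a1 and Klf2 depended on single rats. Fos (-0.91, adjusted p = 0.371), Egr1 (-1.01, adjusted p = 0.174) and Jun (-0.43, adjusted p = 0.124) had their highest control values in control rat 2 and were not DEGs. The list level of that rat was 0.82, against -0.08 to 0.17 in the other control rats. Of 20 glucocorticoid-induced genes 3 were under-expressed and 2 over-expressed, and the typical targets Fkbp5 (-0.73, adjusted p = 0.131), Tsc22d3 (-0.30) and Zbtb16 (-1.18) were not DEGs.

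**Figure D5:**
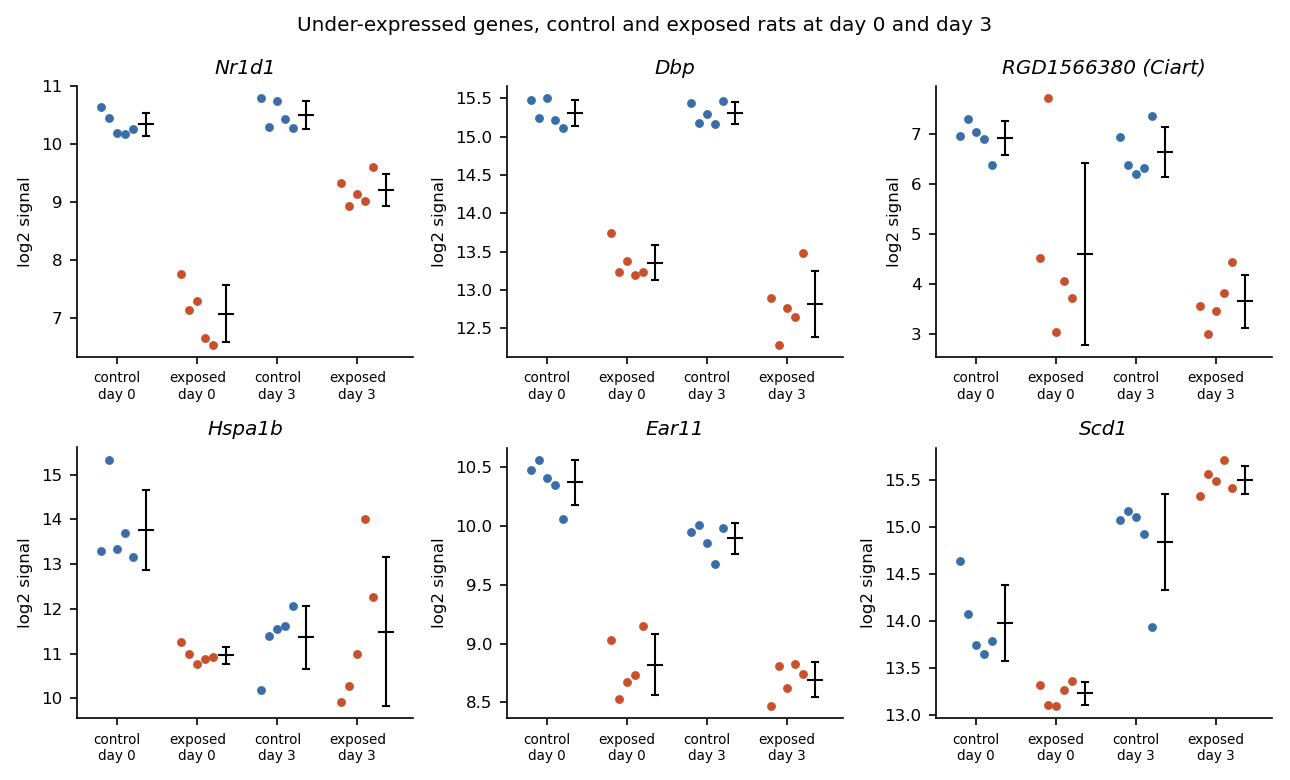
Log2 signal (y axes) of Nr1d1, Dbp, RGD1566380 (Ciart), Hspa1b, Ear11 and Scd1 in each control and exposed rat at D0 and D3, with mean and SD beside the points (n = 5 each). Exposed rat 2 of D0 stands apart in Ciart and control rat 2 of D0 in Hspa1b, and Scd1 has its exposed rats below the control rats at D0 only.

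Enzymes of foreign compound metabolism were under-expressed in 6 of 34 cases and over-expressed in none (median -0.27). Cyp2a3, a cytochrome of the respiratory tract, had 11.04, 10.54, 10.56, 11.10 and 10.82 in control and 9.97, 8.97, 8.80, 9.37 and 9.20 in exposed rats (difference -1.55, SE 0.22, adjusted p = 8.97e-07). Cyp2e1 (-0.82) and the club cell cytochromes Cyp4b1 (-0.73) and Cyp2f4 (-0.73) fell with it, and the call of Por depended on single rats. The control rats of D3 differed from those of D0, which both comparisons share, by -1.24 in Cyp2a3 and by -1.49 in Cyp2e1, both past the test. In that comparison 6 of the 34 genes were lower, against 0.813% of all genes. Cyp2f4 (-0.38) was under the fold limit there and Cyp4b1 (-0.29) did not pass the test.

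Of 25 endothelial genes and adhesion molecules 2 were over-expressed and 3 under-expressed, with a median of -0.27. The selectins that slow leukocytes on activated vessels rose, Sele by 2.01 (adjusted p = 1.35e-05) and Selp by 1.43 (adjusted p = 2.08e-05), while the adhesion molecules Icam1 (-0.14) and Vcam1 (0.14) were not DEGs. Sele had 4.61, 4.74, 6.33, 5.62 and 5.55 in control and 6.60, 7.27, 7.98, 7.50 and 7.57 in exposed rats. Control rat 3 came close to exposed rat 1, without overlap. The second probe of Selp did not pass the test (0.15, adjusted p = 0.892). Selp by its first probe was higher in control rats of D3 than in those of D0, by 0.77 (adjusted p = 0.0414), while Sele (0.92, adjusted p = 0.0855) did not pass. The D0 differences share these control rats of D0, whose part was not tested. Nos3, the endothelial nitric oxide synthase, fell by 0.84 (SE 0.09, adjusted p = 4.04e-10) and Lyve1, a marker of lymphatic vessels, by 0.77, while the call of Tek depended on single rats. Outside the list, and named after their values were seen, the capillary lipase anchor Gpihbp1 (-1.24, adjusted p = 3.81e-11), the tight junction gene Cldn5 (-0.87), and Dll1 (-1.32) and Nrarp (-1.14) of the Notch pathway were under-expressed. Nos3, Gpihbp1, Cldn5 and Nrarp had a weaker exposure effect at D3 by the interaction test. The control rats of D3 differed from those of D0, which that test also uses, by -0.73 in Gpihbp1 and by -0.62 in Cldn5, both past the test, while Nos3 (-0.52) was under the fold limit and Nrarp (-0.34) did not pass.

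Sensory and vasoactive genes moved both ways, with 4 of 42 over-expressed and 3 under-expressed (median -0.12). Calcb, a calcitonin gene-related peptide, rose by 1.57 and the nociceptor sodium channel Scn10a by 1.56 (SE 0.18, adjusted p = 3.95e-09). Tac1, the precursor of substance P, had 9.26, 9.78, 9.58, 9.61 and 9.17 in control and 7.96, 8.01, 7.72, 8.25 and 8.44 in exposed rats (difference -1.40, SE 0.19, adjusted p = 4.8e-07). Npr3, the clearance receptor of natriuretic peptides, fell by 1.28. The peptide precursors Calcb and Tac1 thus moved in opposite directions. In control rats of D3 against those of D0, 3 of the 42 genes were lower and 1 higher, against 0.813% and 1.52% of all genes. Npr3 differed there by -0.72 (adjusted p = 0.0115) and Scn10a by -0.68 (adjusted p = 0.00893). This comparison shares the control rats of D0, whose part in the D0 differences was not tested.

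Of 43 genes of cholesterol and fatty acid synthesis 7 were over-expressed, all of them in the cholesterol branch, among them Hmgcs1 (0.82, adjusted p = 6.61e-07), Idi1 (0.79), Dhcr7 (0.73), Hsd17b7 (0.71) and Sqle (0.68). Scd1, the desaturase that makes monounsaturated fatty acids, was the 1 under-expressed member, with 14.64, 14.08, 13.75, 13.65 and 13.79 in control and 13.32, 13.11, 13.10, 13.27 and 13.37 in exposed rats (difference -0.75, SE 0.18, adjusted p = 0.00289). At D3 its exposure effect was 0.66, so that the sign turned (interaction 1.41, adjusted p = 0.00104). In 2 of the 43 genes control rats of D3 were higher than those of D0, against 1.52% of all genes, and in none lower. Scd1 was higher by 0.86 (adjusted p = 0.00124) and Hsd17b7 by 0.67 (adjusted p = 0.000397). The interaction and this comparison share the control rats of D0, whose part in the D0 differences was not tested. Fasn, fatty acid synthase, was not a DEG (0.17). Of 31 PPAR targets and genes of fat oxidation, Angptl4 (0.86) was over-expressed and Pdk4, with a call that depended on single rats, under-expressed. The DEGs of this list made up 6.5% of it, against 4.28% of all genes.

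Of 41 genes of extracellular matrix and fibrosis, 2 were over-expressed (4.9%, against 2.77% of all genes), and the median was -0.23. They were Cthrc1 (1.07, adjusted p = 5.81e-11) and versican, Vcan (0.70, adjusted p = 0.00201). Col1a1 (0.16) and Col3a1 (0.14) were not DEGs, although the control rats of D3 were higher than those of D0 by 1.08 in Col1a1 and by 0.88 in Col3a1. Cthrc1 was higher there as well, by 0.68 (adjusted p = 6.75e-06). Of the 41 genes 8 were higher and 1 lower in that comparison, which shares the control rats of D0. Their part in the D0 differences was not tested. Of 23 metalloproteinases and inhibitors, Mmp7 (1.71), Mmp12 and Mmp14 were over-expressed and Adamts1 (-0.73) and Adamts9 (-0.71) under-expressed, the last with a call that depended on single rats. Timp1 differed by 0.22, under the fold limit.

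The remaining genes of the largest decreases belonged to no list. Dlk1, an imprinted gene of the Notch family, had 6.33, 6.04, 6.49, 6.61 and 5.81 in control and 5.35, 2.86, 2.41, 3.30 and 5.14 in exposed rats (difference -2.45, SE 0.39, adjusted p = 9.22e-06), and the control rats of D3 differed from those of D0 by -1.99. Gnat1 (-1.53), a transducin subunit, differed by -1.12 between the same control groups. Rnase17 (-1.89), Ccdc116 (-1.70), Prtg (-1.64) and the potassium channel Kcna6 (-1.73) fell in every exposed rat below the lowest control rat, which the rule for the largest decreases required. The second probe of Kcna6 (0.30, adjusted p = 0.744) and of Prtg (-0.59, adjusted p = 0.398) did not pass the test.

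Few markers of cells that could have been carried along in the dissected lobe were DEGs. Of the markers of red blood cells (10 tested), cardiac muscle (14) and fat (10), none was a DEG by limma (3, 0 and 4 at an unadjusted p under 0.05), and their medians were -0.23, -0.10 and -0.12. Over all genes, 5894 of 25208 had an unadjusted p under 0.05. Of 11 mesothelial markers Itln1 was over-expressed, from signals at background in control rats, and the median was -0.23. Of 10 platelet markers Pf4 was over-expressed (0.62), a call that was lost when either of 2 rats was left out, and of 13 mast cell markers Tpsb2 was under-expressed (-0.69). At an unadjusted p under 0.05 by limma were 5 mesothelial, 1 platelet and 4 mast cell markers. DEGs made up 9.1% of the mesothelial, 10% of the platelet and 7.7% of the mast cell markers, against 4.28% of all genes.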

How the data were processed

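RNA of 1 lung lobe per rat was hybridised to one-colour Agilent arrays. The authors deposited, per array, the scanner output of Agilent Feature Extraction 11.0.1.1, whose processed signal is a fluorescence intensity that is already background-corrected per the file headers, and a value table on a linear intensity scale that ranked the spots of the array checked as its median signal did. From the deposited intensity, outlier spots were left out, spots of a probe averaged, the log2 taken and all 50 arrays quantile normalized, with R 4.3.3 and limma 3.58.1. A probe was kept when its signal passed, on 5 or more arrays, the level below which 95% of that array's negative control spots lay. The probe with the highest mean signal stood for a gene. A mean was fitted for each of 10 groups of exposure and day, with empirical Bayes variances, and p-values were adjusted by Benjamini-Hochberg over 25208 genes. Each array came from a separate rat, so that p-values measure the spread between rats of a group, pooled over the 10 groups. The number of arrays limits the precision.

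Within 47 gene lists, named genes were the 12 largest increases and decreases with a gene symbol whose groups did not overlap and which were well above background on at least 3 of 5 arrays of the higher group, the 5 largest called members of each list and every called member that moved against its list. Other members are given by value, and a few are not reported here. The members and lists were chosen with earlier results of these data known. The code was tested on simulated data. Promoters are those of RefSeq, assembly GRCr8. The alternatives were the slide or the replicate number as a block, D0 arrays alone, 75th percentile scaling, normexp correction, the authors' value table, the mean over the spots of a gene name, other filters and thresholds, and each rat left out in turn.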

Additional observations from a re-analysis of the deposited data

Results flagged for a closer look

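In 18 of 594 groups of 5 rats (3.0%), 1 rat stood apart from the other 4 by Dixon's criterion, where chance gives about 1 in 20. Control rat 2 stood apart in Hspa1b (15.33), in the level of the immediate early list (0.82) and in Elane (6.22). Control rat 4 stood apart in Ccl20 (9.36), Icos (5.62) and Kng2 (11.07), control rat 5 in Ccnb2 (6.64), control rat 3 in Ccnd1 (12.49) and control rat 1 in Dnaja1 (14). Among the exposed rats, rat 1 stood apart in Por (12.60) and Scgb1a1 (17.66), rat 2 in Hmox1 (11.76) and Igfbp2 (10.09), rat 3 in the level of the airway list (0.10), rat 4 in Dhcr7 (10.01), Dusp2 (8.45) and Tnf (12.30), and rat 5 in Il1b (13.18).

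For 27 of the named genes the exposure effect at D3 differed from that at D0 by the interaction test. The difference, D3 minus D0, was below 0 for the cell cycle genes Cdca3 (-1.55), Top2a (-1.53), Spc25 (-1.50), Ccnb2 (-1.41), Rrm2 (-1.24), Cdk1 (-1.21), Ube2c (-1.15), Ccnb1 (-1.11) and Mcm5 (-0.80). It was also below 0 for Tnfrsf9 (-1.24), Sod2 (-0.83), Ccr2 (-0.78) and Hmgcs1 (-0.65). It was above 0 for the heat shock genes Hspa1b (2.93), Dnajb1 (1.05) and Hspb1 (0.86), for the clock genes Nr1d1 (1.97) and Npas2 (1.28), and for the endothelial and Notch genes Gpihbp1 (1.08), Nrarp (0.94), Cldn5 (0.61) and Nos3 (0.61). The same held for Dlk1 (2.36), Scd1 (1.41), Gnat1 (1.34), Irf7 (0.76) and Cyp4b1 (0.69). These differences and the D0 values share the control rats of D0.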

How the results depend on the processing

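No named DEG changed its direction under any alternative run. The DEGs at D0 (1079, with 699 over-expressed and 380 under-expressed) came to 582 (407 and 175) with normexp correction, to 664 (461 and 203) with the authors' value table and to 3406 (1748 and 1658) without a fold limit. The under-expressed genes came to 584 with the slide as a block, to 198 with the D0 arrays alone and to 647 with unadjusted p. Leaving out single rats gave 1003 to 1207 DEGs. The replicate numbers did not pair the rats (r of same-numbered rats 0.32, -0.24, 0.27, 0.14 and -0.17), and with the replicate block there were 1030 DEGs. The interaction DEGs (171, with 60 and 111) came to 314 (144 and 170) with the slide as a block, and the genes lower in control rats of D3 (205) to 315, the latter an alternative chosen after seeing the data. List medians with normexp correction were 0.72 for CC chemokines, 0.633 for the cell cycle, 0.326 for MHC class II, 0.225 for airway genes, 0.203 for B cells, 0.168 for dendritic cells, 0.142 for cytokine receptors, 0.087 for cytokines, 0.036 for alternative activation, -0.01 for serine proteases, -0.057 for neuropeptides, -0.173 for xenobiotic enzymes and -0.19 for endothelium. With the authors' value table they were 0.732 for the cell cycle, 0.311 for MHC class II, 0.246 for B cells, 0.175 for dendritic cells, 0.147 for cytokine receptors, 0.113 for cytokines, 0.091 for alternative activation, -0.177 for endothelium and -0.188 for xenobiotic enzymes. The mean over spots gave 0.171 for cytokine receptors and 0.145 for alternative activation, and the stricter filter gave 0.784 for the acute phase, 0.427 for airway genes, 0.179 for cytokine receptors and 0.13 for alternative activation. The 75th percentile scaling gave 0.13 for antioxidant genes, and the mean within slides 0.334 for dendritic cells. Leaving out single rats gave 0.181 to 0.304 for cytokine receptors, 0.205 to 0.339 for dendritic cells, 0.252 to 0.347 for airway genes, 0.107 to 0.251 for cholesterol and fatty acid synthesis and -0.341 to -0.192 for xenobiotic enzymes. The cause of these shifts was not tested. Of 193 named DEGs, 173 were called whichever rat was left out, 29 lost the call with normexp correction, 20 with the value table, 17 with the D0 arrays alone, 5 with the replicate block and 1 with the slide as a block. Signal over background limits the floored values.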
